A study of Zea mays with 6 samples.

Results

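Transcript levels in maize mesocotyls treated with GA3 or with UCZ were set against those of untreated mesocotyls, and the genes described are those that moved the same way under both treatments. GA3 is an active gibberellin, and UCZ is described in the series as an inhibitor of gibberellin biosynthesis. Genes that moved opposite ways under these treatments were left out. A probe set was included when the average of GA3 and UCZ differed from control at an adjusted p under 0.05 and when GA3 minus control and UCZ minus control had 1 sign in both replicate numbers. By this rule 1586 of 10533 probe sets tested were included, 672 higher and 914 lower in treated mesocotyls. A matching sign of any size sufficed, so genes that changed mainly under UCZ were included. These are not set apart from genes that follow gibberellin level. Against control, GA3 passed by itself for 174 of the higher and 384 of the lower probe sets, and UCZ for 608 and 838. All plants were of the maize inbred line 3681-4, sown 20 cm deep, kept in the dark and sampled 10 days after sowing. The groups were GA3 (2 arrays), UCZ (2 arrays) and control (2 arrays), with a replicate 1 and a replicate 2 in each. Every group shared the deep sowing and the darkness, so neither was varied. Doses, times of application, the solvent and how many plants went into an array are not stated in the labels.

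The mesocotyl is the stem segment between the seed and the coleoptile node of a grass seedling, and its elongation in the dark carries the shoot to the soil surface. Gibberellins promote growth in plants by triggering the breakdown of DELLA repressors, and elongating cells loosen their walls while maturing cells deposit cellulose and lignin. Pathogenesis-related proteins and chitinases are defence proteins, and small heat shock proteins keep damaged proteins soluble. Both classes respond to many kinds of stress.

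Array signals were the authors' scaled values, and changes are differences of log2(signal + 16), called average changes when they set the mean of GA3 and UCZ against control. For any treatment against control 2004 probe sets passed the test (19% of those tested), 859 higher (8.16%) and 1145 lower (10.9%). These shares are the ones to set beside the counts of called genes in every list below. Without any test 3565 probe sets (33.8%) moved 1 way in all 4 differences, 1797 up and 1768 down. The 2 differences of a replicate number share its control array and are not independent of each other. Both conditions together held for 15.1% of the probe sets tested, 6.38% on the higher side and 8.68% on the lower. The other 418 of the 2004 calls did not keep 1 sign. The last probe set inside the sign rule had a smallest difference of 0.0011 and an average change of 0.55, and the first one outside it missed by 0.00066 with an average change of -0.44.

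How many probe sets passed depended on what counted as spread. The model gave each treatment its own mean and took replicate number as a block. When GA3 and UCZ were taken as 1 treated group, so that a difference between them counted as spread, 15 probe sets passed, 2 higher and 13 lower, and all 15 were among the 1586. Without the replicate block 532 passed, of which 469 moved 1 way in all 4 differences, all of them among the 1586. When arrays were scaled to the poly-A control transcripts in place of the deposited scaling, 1723 passed, 92 higher and 1631 lower, and 592 of the 1586 remained among those that moved 1 way. That scaling moved the median average change of all probe sets to -0.22, against -0.005 with the deposited scaling. Higher probe sets made up 42.9% of all calls with the deposited scaling, 58.8% with arrays centred on their medians and 5.34% with poly-A scaling.

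Changes were mostly moderate and were of similar size in both replicate numbers. The 672 higher probe sets had a median average change of 0.44, with 0.43 in replicate 1 and 0.46 in replicate 2. The 914 lower ones had a median of -0.56, with -0.55 in replicate 1 and -0.57 in replicate 2. An average change of 2-fold or more was reached by 143 probe sets, 28 higher and 115 lower. In each of the 4 differences separately, 40 probe sets reached 2-fold, 3 higher and 37 lower. Since the rule used these differences, their sizes are a description.

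Median signals were 203.7 and 197.4 on the GA3 arrays, 190.6 and 185.4 on the UCZ arrays, and 201 and 204.9 on the control arrays. The 3'/5' signal ratio of actin, a measure of RNA integrity in which higher values mean more degraded or less fully copied RNA, was 4.64 and 3.4 for GA3, 4.14 and 3.11 for UCZ, and 3.57 and 2.76 for control. Within each replicate number it was thus higher on both treated arrays. The ratio of Gapdh ran the other way, at 2.08 and 1.65 for GA3, 1.79 and 1.56 for UCZ, and 2.19 and 1.95 for control. Poly-A control transcripts, bacterial sequences added to the RNA before labelling in the standard protocol, were above control by 0.57 and 0.64 on the UCZ arrays, and differed from control by -0.04 and -0.33 on the GA3 arrays. Beyond the refit scaled to the poly-A controls given above, the part of these measures in the changes below was not tested. Fewer cells of a type and less RNA per cell cannot be told apart in these bulk samples.

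The pathogenesis-related genes pr5 and prp4 had the largest falls among genes with a name, each taken by its brightest probe set. The list of pathogenesis-related proteins and chitinases had a median average change of -0.85 (-0.005 over all probe sets tested). All 6 measured genes of the list were called (beside 19% of all probe sets), 1 higher and 5 lower. Of these, prp2 and 3 of the 5 lower genes kept 1 sign in all 4 differences. The signal of pr5, a thaumatin-like pathogenesis-related protein, was 277 and 339 with GA3 and 594.2 and 555.8 with UCZ, against 2050 and 1731 in control. Every treated array was below both control arrays. The rule already required each treated array to lie on 1 side of the control array of its own replicate number. Such separation, here and for the genes below, is therefore a description. The average change of pr5 was -2.12 ± 0.12 (SE), 4.35-fold lower, with an adjusted p of 5.1e-08 (limma), and it was larger with GA3 than with UCZ (difference -0.87, adjusted p = 0.00022).

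For prp4, another pathogenesis-related protein and a synonym of PR-1 in the gene table, signals were 109 and 86.05 with GA3 and 63.55 and 53.26 with UCZ, against 400.4 and 282.8 in control. No treated value reached the lower control value, and the average change was -1.95 ± 0.14 (adjusted p = 5.1e-07). The chitinase chn1, of a class of enzymes that cut the chitin of fungal walls, had 1694 and 1909 with GA3 and 2262 and 2280 with UCZ, against 4143 and 3997 in control. It was 2.01-fold lower on average (adjusted p = 3.4e-06), with GA3 further from control than UCZ by -0.33 (adjusted p = 0.021). In contrast, prp2, also named as pathogenesis-related, had 5063 and 4906 with GA3 and 6263 and 5957 with UCZ, against 3566 and 2999 in control, an average change of 0.75 ± 0.08 (adjusted p = 2.9e-05). The proteinase inhibitor piip2 fell with both treatments, to 180.6 and 270.4 with GA3 and 156.1 and 176.7 with UCZ, against 399.1 and 521.4 in control (average change -1.18 ± 0.12, adjusted p = 2e-05). The related piip1 did not keep 1 sign, with changes of 1.51 under GA3 and -0.27 under UCZ.

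**Figure D1:**
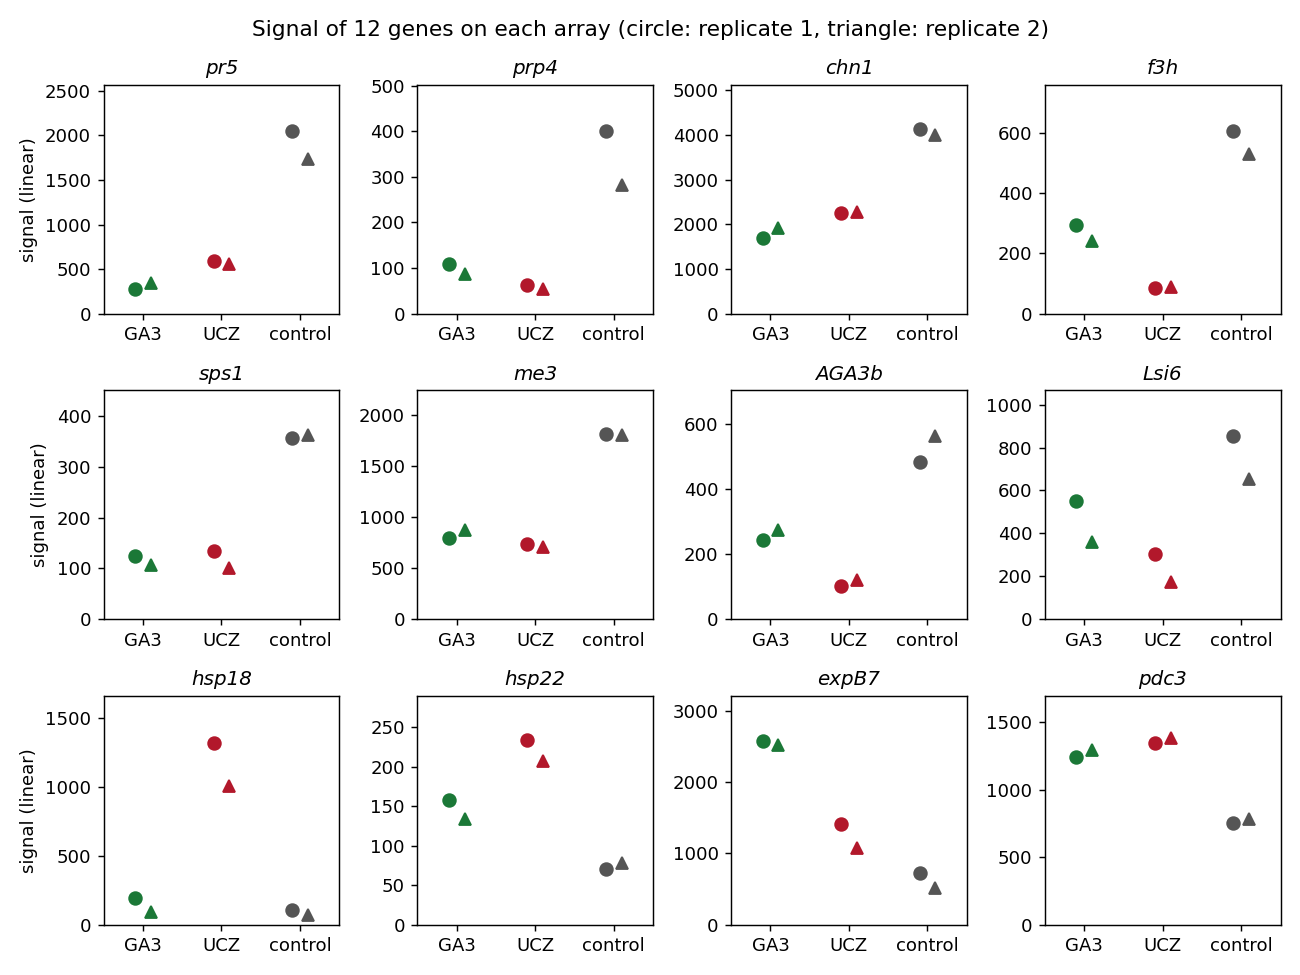
Signal on each array (linear scale starting at 0) of 12 genes, with GA3, UCZ and control from left to right, circles for replicate 1 and triangles for replicate 2. For pr5, prp4, chn1, f3h, sps1, me3, AGA3b and Lsi6 every treated array lies below both control arrays, and for hsp22, expB7 and pdc3 every treated array lies above them, while for hsp18 the GA3 array of replicate 2 lies between the control arrays.

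Among genes of carbon metabolism, sucrose phosphate synthase and a malic enzyme fell alike under both treatments. The sps1 gene codes for sucrose phosphate synthase, which makes the precursor of sucrose. Its signal was 124.3 and 107.3 with GA3 and 135.1 and 100.7 with UCZ, against 357 and 362 in control. The average change was -1.51 ± 0.13 (adjusted p = 4.2e-06), and GA3 minus UCZ was -0.01 with a 95% interval of -0.35 to 0.32. It was the only gene with a name of its own among the 15 probe sets that passed with GA3 and UCZ taken as 1 group. Of 11 measured genes of sucrose and starch metabolism 3 were called higher and 3 lower, with a median of 0.01. The higher ones with 1 sign were incw1, a cell wall invertase that splits sucrose outside the cell (0.66 ± 0.13, adjusted p = 0.0022), and Agp2, of ADP-glucose pyrophosphorylase for starch synthesis (0.65 ± 0.10, adjusted p = 0.0004). Agp2 had 1032 and 769 with GA3 and 948.9 and 822.1 with UCZ, against 612.2 and 509.6 in control.

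The NADP-malic enzyme me3, which in leaves releases carbon dioxide for the C4 pathway, had 792.7 and 877.9 with GA3 and 739.5 and 710.4 with UCZ, against 1813 and 1808 in control. The groups did not overlap, the average change was -1.20 ± 0.09 (adjusted p = 1.4e-06), and GA3 minus UCZ was 0.20 with a 95% interval of -0.04 to 0.43. This gene belongs to the list of leaf photosynthesis markers, drawn up for a tissue other than the mesocotyl, of which all 17 genes on the array passed the brightness filter. Their median average change was -0.14. None of the 17 was called higher and 4 were called lower (beside 8.16% and 10.9% of all probe sets). Of the 4, 3 kept 1 sign. The others were pdk1, pyruvate orthophosphate dikinase (-0.47 ± 0.08, adjusted p = 0.0011), and Lhcb5-2, a light-harvesting protein (-0.31 ± 0.08, adjusted p = 0.019), while pep1 was called without keeping 1 sign. The call of Lhcb5-2 was lost in 3 of 6 fits that left out an array, without UCZ replicate 1 (adjusted p = 0.065), UCZ replicate 2 (0.073) or control replicate 2 (0.2). Of the 3 other probe sets of pdk1, 1 was called higher (0.35) and the rest lower. The summed signal of the 17 genes was 67360 to 72640 with GA3 and 87810 to 93600 with UCZ, against 87740 to 90020 in control. The UCZ sums overlapped those of control while both GA3 sums were lower, and the part of leaf tissue in the fall of me3 was not tested. Genes matched by name to lists for other organs were mostly dim, with 2 of 19 for kernel, 2 of 7 for root and 5 of 26 for pollen and tassel above the filter. Whether each matched gene marks its organ was not tested.

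Cellulose synthases that were called were lower in treated mesocotyls, and cesa10, cesa11, CesA12 and the related bk2 were further from control with UCZ than with GA3 by test. Of 14 measured cellulose synthases and relatives none was called higher and 5 lower (beside 10.9% of all probe sets), all with 1 sign. The list median was -0.17. The synthases cesa10, cesa11 and CesA12, known from maize as the set of secondary walls, changed by -0.95 ± 0.11, -0.84 ± 0.10 and -0.89 ± 0.11. The cesa10 signal was 695 and 809.5 with GA3 and 367 and 299.6 with UCZ, against 962.3 and 1001 in control. Its change was -0.38 with GA3 (adjusted p = 0.1) and -1.52 with UCZ (adjusted p = 1.9e-06), and the difference of 1.14 had an adjusted p of 2.4e-05. The COBRA-like gene bk2, whose loss makes maize stalks brittle, changed by -0.82 ± 0.11 (adjusted p = 0.00012). The remaining call was cesa7, at -0.27 ± 0.08 (adjusted p = 0.034).

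In lignin synthesis the list median was -0.39. Of 5 measured genes 4 were called, all lower (beside 10.9% of all probe sets) and all with 1 sign. They act in sequence: 4CL activates hydroxycinnamic acids, ccr2 and cncr1 reduce the activated acids to aldehydes, and CAD2 (also bm1) reduces the aldehydes to lignin alcohols. Average changes were -0.60 ± 0.09 for 4CL (adjusted p = 0.00041), -0.88 ± 0.12 for ccr2 (adjusted p = 0.00024), -0.39 ± 0.10 for cncr1 (adjusted p = 0.016) and -0.38 ± 0.09 for CAD2 (adjusted p = 0.0085). CAD2 had 2810 and 2567 with GA3 and 2923 and 2303 with UCZ, against 3498 and 3386 in control, and GA3 minus UCZ was 0.05 with an interval of -0.17 to 0.27. Its call was lost without control replicate 2 (-0.29, adjusted p = 0.12) and without UCZ replicate 2 (-0.32, adjusted p = 0.061). For cncr1 GA3 minus UCZ was -0.01 with an interval of -0.26 to 0.24. By contrast, ccr2 was further from control with UCZ, and its GA3 array of replicate 1 (255.7) lay above the control array of replicate 2 (249.4). The flavonoid enzyme f3h, flavanone 3-hydroxylase, lies on a branch of the same pathway. It fell to 295 and 240.3 with GA3 and 84.48 and 89.98 with UCZ, against 607.2 and 530.7 in control (average change -1.77 ± 0.12, adjusted p = 4.9e-07). Of 2 measured flavonoid genes the other, a2, was not called (-0.13, adjusted p = 0.37). It was at 0.14 with GA3 and -0.39 with UCZ.

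A pair of beta expansins, proteins that loosen the walls of growing cells, moved in opposite directions. Of 9 measured expansins only these 2 were called, and the list median was 0.25. The signal of expB7 was 2573 and 2524 with GA3 and 1411 and 1074 with UCZ, against 721.4 and 507.8 in control. It rose by 1.52 ± 0.11 on average (2.88-fold, adjusted p = 4.5e-07), by 2.04 with GA3 and 1.01 with UCZ, so both treatments were above control while GA3 exceeded UCZ (difference 1.04, adjusted p = 2.7e-05). The signal of expB4 was 3669 and 3652 with GA3 and 1193 and 1141 with UCZ, against 4762 and 3898 in control. Its average change of -1.05 ± 0.09 (adjusted p = 2.9e-06) was made up of -0.23 with GA3, which did not pass by itself (adjusted p = 0.21), and -1.87 with UCZ. All 9 expansins were higher with GA3 than with UCZ by the test of that difference, beside 17% of all probe sets.

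Of 23 measured aquaporins 1 was called higher and 4 lower, beside 8.16% and 10.9% of all probe sets, with a median of -0.09. The lower ones were Lsi6, nip2b, Lsi1 and the tonoplast channel tip2a, which did not keep 1 sign (0.03 with GA3 and -1.42 with UCZ, average change -0.70 ± 0.11, adjusted p = 0.00053). Lsi6, nip2b and Lsi1 belong to the NIP2 group, whose members Lsi1 and Lsi6 are known from rice as silicon transporters. Lsi6 had 553.1 and 357.7 with GA3 and 302.9 and 171.5 with UCZ, against 854.6 and 655.1 in control. Its average change was -1.19 ± 0.11 (adjusted p = 9.8e-06), and replicate 2 was below replicate 1 in every group. Changes of nip2b and Lsi1 were -0.87 ± 0.09 (adjusted p = 1.3e-05) and -0.75 ± 0.11 (adjusted p = 0.00037). The higher call was por2, a tonoplast water channel (TIP2-3), at 0.62 ± 0.15 (adjusted p = 0.013). Its change was 0.30 in replicate 1 and 0.93 in replicate 2, and leaving out control replicate 2 ended the call (adjusted p = 0.29).

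In ethylene synthesis and signalling 1 of 3 measured genes was called higher and 1 lower. ACO31 codes for ACC oxidase, which makes ethylene from its precursor, and fell to 754.2 and 885.9 with GA3 and 428.7 and 418.8 with UCZ, against 1508 and 1184 in control (average change -1.16 ± 0.12, adjusted p = 1.4e-05). The ethylene receptor etr2 had 419.7 and 376.3 with GA3 and 419.5 and 379.1 with UCZ, against 303 and 306.3 in control (average change 0.37 ± 0.11, adjusted p = 0.031). Under poly-A scaling etr2 was at 0.16. Its call was lost without any 1 of the arrays, at adjusted p-values up to 0.21.

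The remaining large falls were of genes with other or less certain roles. The safener-induced gene saf1 (In2-1) had 200.1 and 258.7 with GA3 and 51.96 and 87.19 with UCZ, against 284.3 and 298.5 in control, an average change of -1.11 ± 0.14 (adjusted p = 9.8e-05). Its change with GA3 of -0.34 did not pass by itself (adjusted p = 0.26). AGA3b and AGA2 changed by -1.53 ± 0.12 and -1.08 ± 0.16, and SAG by -0.94 ± 0.09. For SAG the values were 1016 and 1195 with GA3 and 786.5 and 1097 with UCZ, against 1771 and 2164 in control, and the interval of GA3 minus UCZ was 0.01 to 0.48.

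**Figure D2:**
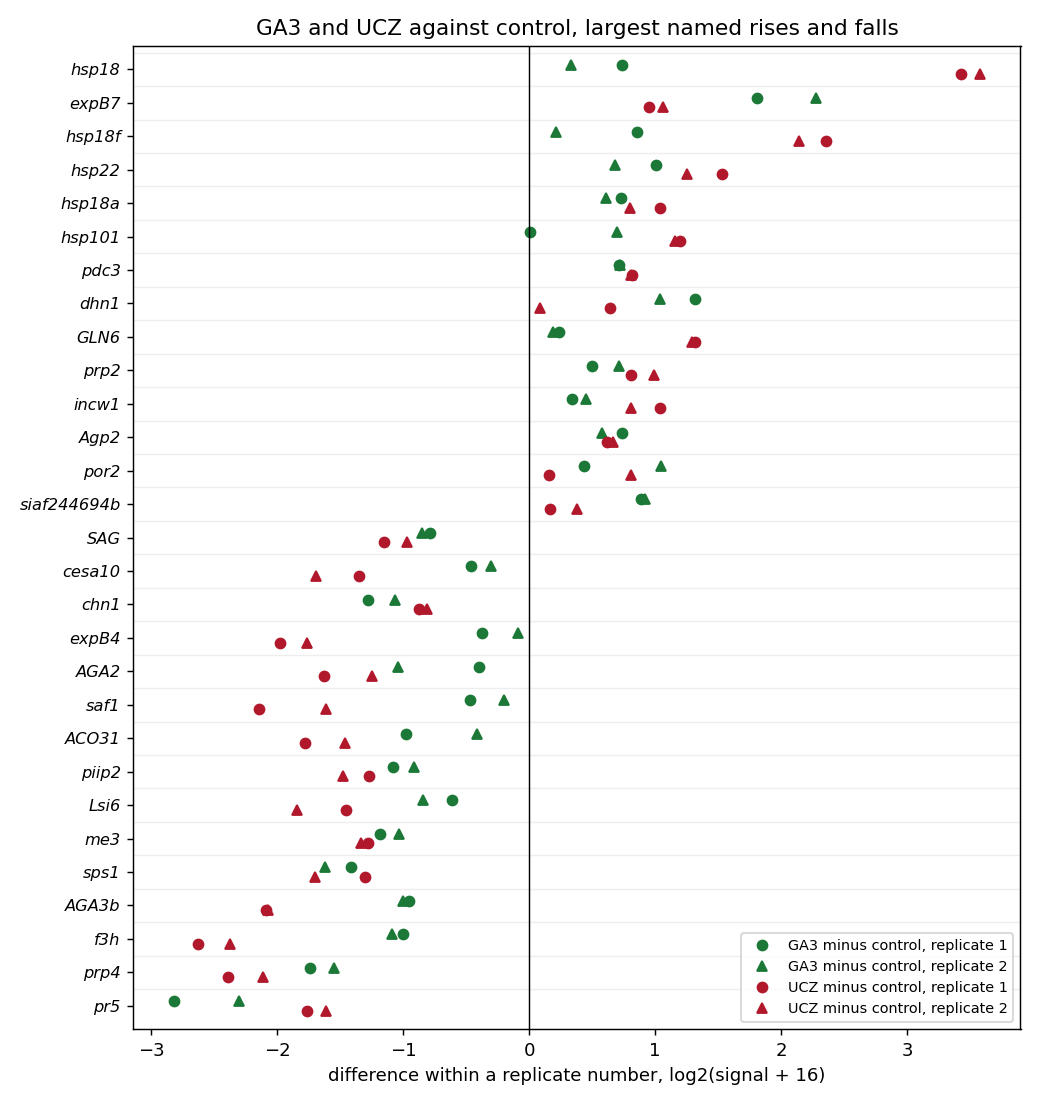
Differences of log2(signal + 16) between a treated array and the control array of the same replicate number, for the largest rises (top) and falls (bottom) among the named genes described here, with GA3 in green, UCZ in red, circles for replicate 1 and triangles for replicate 2. All 4 points of a gene lie on 1 side of 0 because the rule required it. The small heat shock genes hsp18 and hsp18f lie far higher with UCZ than with GA3, whereas sps1 and pdc3 have the 4 points close together.

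Nearly all measured heat shock proteins were higher on average in treated mesocotyls, with list medians of 0.45 with GA3 and 1.05 with UCZ. Of 8 measured genes 7 were called higher and none lower, all 7 with 1 sign, and the median average change was 0.78, beside 8.16% of all probe sets called higher. The largest changes were of small heat shock proteins. The signal of hsp18 was 191.2 and 91.18 with GA3 and 1318 and 1003 with UCZ, against 107.9 and 69.3 in control. GA3 and control overlapped across replicate numbers, whereas the UCZ arrays stood far above both. Its average change of 2.02 ± 0.13 (adjusted p = 3.1e-07) therefore joined 0.54 with GA3 (adjusted p = 0.05) and 3.5 with UCZ. The difference of -2.97 between them had an adjusted p of 1.9e-08. The pattern of hsp18f was alike, with 161.2 and 83.2 with GA3 and 482.6 and 361.4 with UCZ, against 81.36 and 69.82 in control (average change 1.39 ± 0.15, adjusted p = 2.6e-05). It changed by 0.54 with GA3 (adjusted p = 0.077) and 2.25 with UCZ.

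Of the other heat shock genes, hsp22 and hsp18a passed under each treatment by itself, and hsp101, hsp70-4 and hsp70-5 passed with UCZ and not with GA3. Signals of hsp22 were 157.3 and 134.3 with GA3 and 233.1 and 207.1 with UCZ, against 70.23 and 77.59 in control (2.17-fold higher on average, adjusted p = 7.8e-05). Those of hsp18a were 367.2 and 313.1 with GA3 and 457.8 and 359.1 with UCZ, against 215 and 199.1 in control, and both GA3 (0.67, adjusted p = 0.0053) and UCZ (0.92, adjusted p = 0.00014) passed by themselves. The 95% interval of GA3 minus UCZ for hsp18a was -0.53 to 0.04. The disaggregase hsp101 had 257.2 and 421.9 with GA3 and 607.6 and 585.8 with UCZ, against 255.3 and 253.6 in control, so that its GA3 array of replicate 1 was level with control. Its change with GA3 was 0.36 (adjusted p = 0.24), and GA3 minus UCZ was -0.82 (adjusted p = 0.0019). The chaperones hsp70-4 and hsp70-5 changed by 0.29 ± 0.08 and 0.31 ± 0.08 on average, and by 0.25 and 0.23 with GA3 (adjusted p = 0.13 and 0.18). Over the 8 genes 4 were lower with GA3 than with UCZ by test (13.9% of all probe sets), and none was higher.

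Genes of fermentation and glycolysis had a median of 0.16. Of 14 measured, 4 were called higher and 2 lower (beside 8.16% and 10.9% of all probe sets), all 6 with 1 sign. Those called higher were the pyruvate decarboxylase pdc3, the alcohol dehydrogenases adh1 and adh2 and the aldehyde dehydrogenase rf2c. The aldehyde dehydrogenases aldh2 and rf2 were not called, with average changes of 0.29 (-0.35 with GA3 and 0.94 with UCZ, adjusted p = 0.15) and -0.02 (adjusted p = 0.91). The signal of pdc3 was 1244 and 1295 with GA3 and 1346 and 1382 with UCZ, against 754 and 781 in control. The 4 differences of pdc3 lay between 0.71 and 0.82, its average change was 0.77 ± 0.09 (adjusted p = 5.8e-05), and GA3 minus UCZ had an interval of -0.33 to 0.12. Changes were 0.45 ± 0.11 for adh1 (adjusted p = 0.0094), 0.40 ± 0.09 for adh2 (adjusted p = 0.009) and 0.53 ± 0.11 for rf2c (adjusted p = 0.0034), with UCZ passing by itself for each and GA3 for none. The 2 lower genes, gpc3 and gpc4, code for the glycolytic enzyme glyceraldehyde-3-phosphate dehydrogenase and changed by -0.46 ± 0.09 and -0.66 ± 0.10, with -0.72 and -1.18 under UCZ. With GA3 their changes of -0.20 and -0.15 did not pass (adjusted p = 0.33 and 0.54). Without control replicate 1 gpc3 was at -0.31 and no longer called (adjusted p = 0.082).

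Further rises came from genes of several roles. The dehydrin dhn1 (rab17), a protein of drying seeds and water-stressed tissue, had 1815 and 1712 with GA3 and 1132 and 880 with UCZ, against 719.7 and 823.8 in control. It changed by 1.18 with GA3 and 0.37 with UCZ (average 0.77 ± 0.11, adjusted p = 0.00027), and in replicate 2 the UCZ difference was 0.09. GLN6, a cytosolic glutamine synthetase, changed by 0.22 with GA3 (adjusted p = 0.3) and 1.31 with UCZ, and its GA3 and control arrays overlapped. The gene siaf244694b showed the reverse order, with 0.91 under GA3 and 0.27 under UCZ (adjusted p = 0.12). Under poly-A scaling incw1 (0.45), Agp2 (0.44), por2 (0.40) and siaf244694b (0.38) kept their direction and lost their call, at adjusted p-values of 0.075, 0.077, 0.12 and 0.14. They were among 15 of 68 named genes whose call was lost under that scaling. Without the replicate block the calls of hsp101, Agp2, GLN6, por2 and siaf244694b were lost, at adjusted p-values of 0.063, 0.06, 0.12, 0.27 and 0.094, and so was that of ccr2 (0.067). These are examples, since 24 of the 68 named genes lost their call without the block.

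The contrast of GA3 with UCZ uses no control array, so it shows how alike the shared changes were in size. It was called for 767 of the 1586 probe sets (48.4%, beside 31% of all probe sets tested). The sign rule caps the gap between both treatments relative to their average, so this share is a description. Of the higher probe sets, 272 were further from control with UCZ and 28 with GA3 by that test. Of the lower ones, 402 were further with UCZ and 65 with GA3. Median changes of the higher probe sets were 0.31 with GA3 and 0.55 with UCZ, and those of the lower ones -0.41 and -0.70. Over all probe sets GA3 against control passed for 8.17% (3.08% higher, 5.1% lower), and UCZ against control for 34.7% (15.6% higher, 19.2% lower). Of the probe sets with shared direction, GA3 passed by itself for 174 of the higher and 384 of the lower ones, and UCZ for 608 and 838. A 95% interval of GA3 minus UCZ wholly within 2-fold was found for 1349 of the 1586 (85.1%, beside 90.9% of all), and for 68 of the 143 with an average change of 2-fold or more, 12 higher and 56 lower. Under poly-A scaling 80.7% of the probe sets that met the rule differed between GA3 and UCZ, so the shares above hold for the deposited scaling only.

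**Figure D3:**
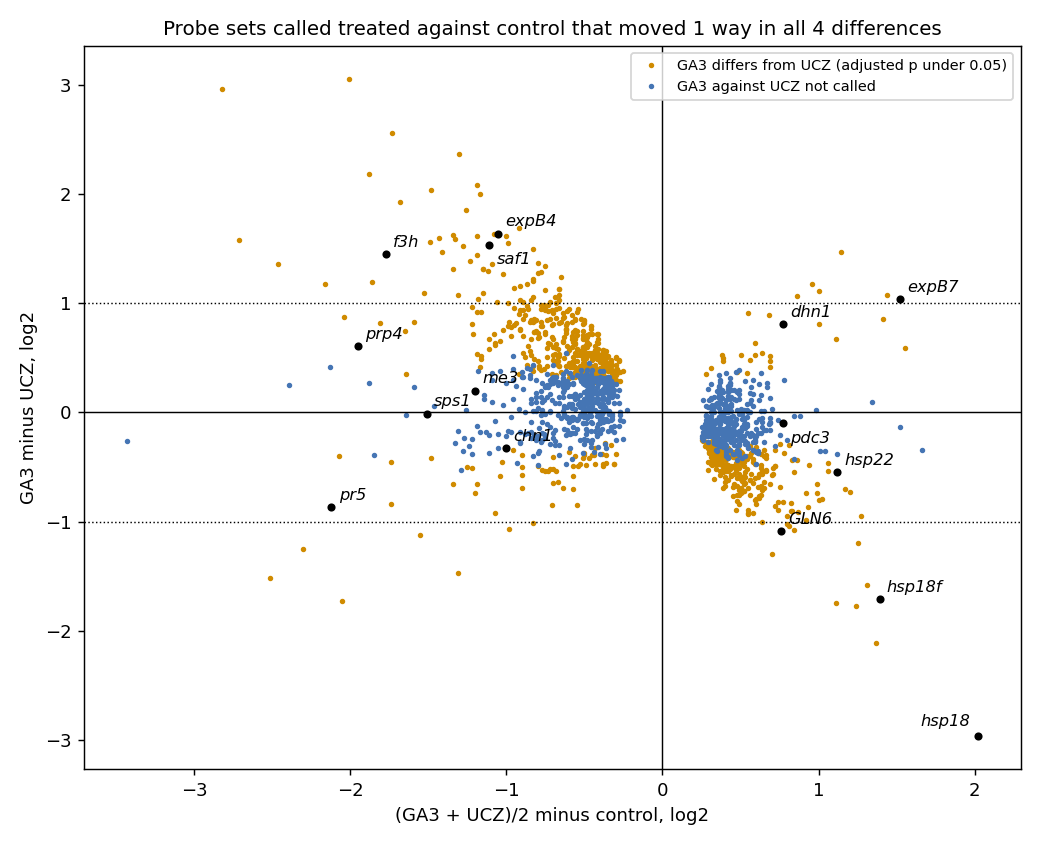
Each of the 1586 probe sets by its average change of GA3 and UCZ against control (x axis, log2) and by GA3 minus UCZ (y axis, log2), orange where GA3 and UCZ differed at an adjusted p under 0.05 and blue where they did not, with dotted lines at 2-fold. Points near the horizontal axis, such as sps1 and pdc3, moved by like amounts under both treatments. Points such as hsp18, expB4, saf1 and f3h were much further from control with UCZ, and pr5, expB7 and dhn1 with GA3.

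Nitrogen genes were split. Of 8 measured, 2 were called higher and 3 lower, and 1 and 2 of these kept 1 sign. Asparagine synthetase asn1 had 2853 and 2888 with GA3 and 1440 and 1295 with UCZ, against 3133 and 3293 in control, an average change of -0.69 ± 0.09 (adjusted p = 9.4e-05) that was -0.16 with GA3 and did not pass there (adjusted p = 0.41). The glutamine synthetase gln5 changed by -0.31 ± 0.10 (adjusted p = 0.037).

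Of 11 measured tubulins none was called higher and 5 lower, beside 10.9% of all probe sets. The median was -0.28, and tub3 (-0.39 ± 0.09) and tub5 (-0.47 ± 0.09) kept 1 sign. Both had changes with GA3 that did not pass (-0.12 and -0.15), and without control replicate 1 tub3 was no longer called (adjusted p = 0.073). Of 26 measured genes of the cell cycle, histones and kinesins none was called higher and 4 lower, all with 1 sign (median -0.09), a share near the 10.9% of all probe sets called lower. These were the kinesins krp6 (-0.83 ± 0.10, adjusted p = 6.7e-05), KIN9 and kin11 and the DNA polymerase clamp pcna1 (-0.58 ± 0.10, adjusted p = 0.00097). With GA3 by itself krp6 passed (-0.41, adjusted p = 0.045). KIN9 (-0.05), kin11 (-0.38) and pcna1 (-0.29) did not, at adjusted p-values of 0.86, 0.2 and 0.16. The call of KIN9 was lost without control replicate 2 (adjusted p = 0.15) and without UCZ replicate 2 (0.066).

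Ribosomal proteins were called higher only, 4 of 13 measured (beside 8.16% of all probe sets), led by RPL19 (0.54 ± 0.09, adjusted p = 0.00079). The list median was 0.19. Of these 4, 3 kept 1 sign, and RPL19, RPS10 and rpl29 lost their call under poly-A scaling (0.33, 0.22 and 0.07). In benzoxazinoid synthesis, which makes a class of maize defence compounds, 2 of 5 measured genes were called higher, and bx1, the first enzyme, kept 1 sign (0.48 ± 0.09, adjusted p = 0.0014). The change of bx1 with GA3 was 0.18 and did not pass by itself (adjusted p = 0.33). The manganese superoxide dismutase sod3 was the only call among 10 peroxidases and antioxidant enzymes (0.41 ± 0.08, adjusted p = 0.004), with 0.29 under GA3 (adjusted p = 0.092). The auxin-binding protein abp1 was the only one among 14 auxin and cytokinin genes (0.40 ± 0.09, adjusted p = 0.0054), with 2707 and 2456 under GA3 and 2710 and 2730 under UCZ, against 2163 and 1845 in control. Under poly-A scaling the changes of bx1, sod3 and abp1 were smaller, at 0.27, 0.20 and 0.19. Hydroperoxide lyase hpl1 was the only call among 7 oxylipin genes (-0.49 ± 0.12, adjusted p = 0.0085), and without control replicate 1 it was at -0.31 and not called (adjusted p = 0.17). Glutathione S-transferases were called both ways, 4 higher and 5 lower of 24, and only gst17, gst9 and gst30 kept 1 sign. Protease inhibitors and cysteine proteases were also mixed, 4 higher and 3 lower of 13. Of 5 measured genes matched by name to the pollen and tassel list, m19 (tunicate1) and m26 were called lower (-0.51 each), with adjusted p-values of 0.0088 and 0.017. Without control replicate 2 the calls of m19, m26, abp1, RPS10 and gst30 were lost, at adjusted p-values of 0.095, 0.16, 0.076, 0.13 and 0.057. Further losses were of m26 without UCZ replicate 2 (0.068), RPS10 without GA3 replicate 2 (0.063) and gst30 without control replicate 1 (0.055).

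**Figure D4:**
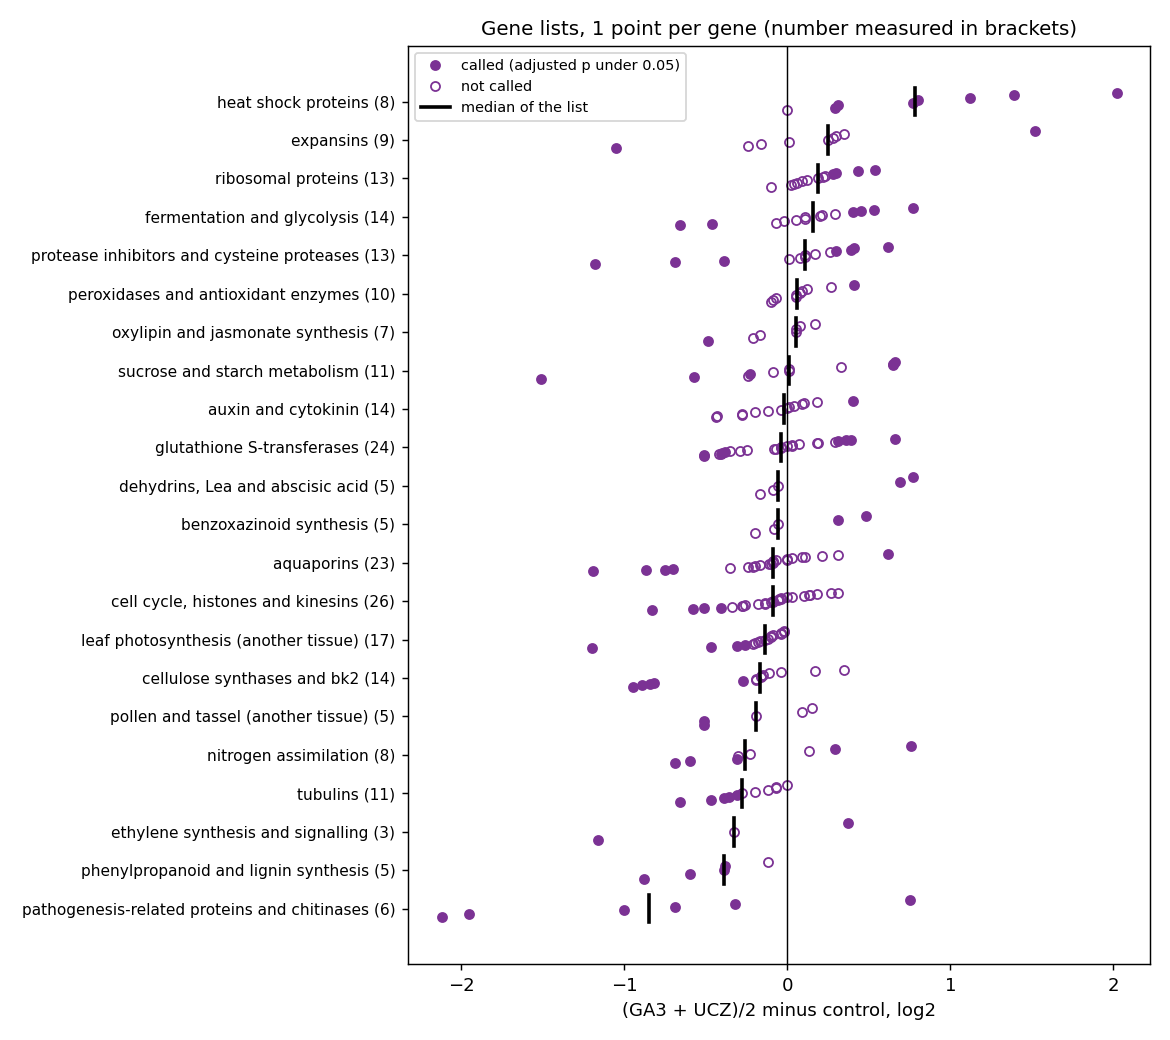
Average change of GA3 and UCZ against control (x axis, log2) for each measured gene of 22 lists, filled where the adjusted p was under 0.05 and open where it was not, with a black bar at the list median and the number of genes in brackets. Heat shock proteins have the highest median (0.78), and pathogenesis-related proteins and chitinases the lowest (-0.85) of the lists drawn.

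Several called genes did not keep 1 sign and are no part of the shared response. The wound-induced inhibitor wip1 had 4684 and 4490 with GA3 and 1493 and 1393 with UCZ, against 4456 and 3897 in control, so its average change of -0.69 joined 0.14 with GA3 and -1.52 with UCZ. The Lea-type gene mlg3 moved mainly with GA3, by 1.56 against -0.18 with UCZ. Its signals were 360.3 and 259.8 with GA3 and 99.7 and 64.6 with UCZ, against 93.1 and 93.18 in control. For gst12 the 4 differences were 0.72 and 1.62 with GA3 and -0.20 and 0.49 with UCZ.

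Of 5 gibberellin genes on the array 1 passed the brightness filter, an1, which codes for the ent-copalyl diphosphate synthase that starts gibberellin synthesis. Its signal was 458.5 and 499.5 with GA3 and 360.3 and 378.5 with UCZ, against 459.8 and 513 in control. The average change of -0.20 ± 0.10 did not pass (adjusted p = 0.2), GA3 was at -0.02 and UCZ at -0.38 (adjusted p = 0.026).

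Most of the shared response has no gene name here. Of the 1586 probe sets, 1404 (88.5%) had no single gene in the annotation, 17 had only a LOC number and 165 stood for 152 named genes. Among all 10533 probe sets tested, only 966 had a single gene, so the lack of names is general. The probe sets below were chosen after their values were seen. The largest fall of all was of LOC100125656, with 105.4 and 99.53 with GA3 and 122 and 129.6 with UCZ, against 1510 and 1269 in control. Its average change was -3.43 ± 0.12 (10.8-fold lower, adjusted p = 1.3e-09), and GA3 minus UCZ was -0.26 with an interval of -0.56 to 0.04. LOC100037813 had 126.7 and 127.1 with GA3 and 124.4 and 132.6 with UCZ, against 437.8 and 425.7 in control, and GA3 minus UCZ was -0.02 with an interval of -0.32 to 0.29. Both were among the 15 probe sets that passed with GA3 and UCZ as 1 group. LOC541622 fell unevenly, with changes of -1.33 under GA3 and -4.30 under UCZ. The gene pgr5 had probe sets that disagreed, the dimmer one at -2.46 ± 0.13 (adjusted p = 5.1e-08) and the brighter one at -0.12 ± 0.10 (adjusted p = 0.43), so no direction is given for it.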

How the data were processed

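Biotin-labelled cRNA from total RNA of mesocotyls was hybridized to 6 Affymetrix maize arrays, 2 each of GA3, UCZ and control. The values are the intensities deposited by the authors, 1 linear signal per probe set and array, made with GCOS and MAS5 per the submitters' processing notes. Their versions and settings are unstated there. Trimmed array means (2% off either end) lay between 500.1 and 500.2, so the arrays had been scaled to a common mean. No counts lie behind these values, and the number of arrays limits the precision.

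Of 17734 probe sets, 113 AFFX controls and 66 RPTR reporters were left out, leaving 17555, and the 60% with the highest mean of log2(signal + 16) over all arrays were kept (10533, lowest mean 6.98). The scale understates fold changes of dim probe sets. A model with 3 group means and the replicate number was fitted with limma 3.58.1 in R 4.3.3 (lmFit, eBayes with trend, 2 residual and 11.7 prior degrees of freedom). The contrasts were (GA3 + UCZ)/2 minus control, GA3 minus UCZ, and each treatment minus control. Tests were two-sided, with Benjamini-Hochberg adjustment over all 10533 probe sets and a threshold of 0.05. Errors are standard errors of the fit.

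Each group has a replicate 1 and a replicate 2, and the series mentions independent experiments. Arrays of 1 number were therefore treated as a pair, and their departures from the means of their groups correlated at 0.76 for GA3 with UCZ, 0.67 for GA3 with control and 0.73 for UCZ with control over 10533 probe sets.

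Names came from the platform annotation and, through gene identifiers, from symbols and synonyms in RefSeq's gene table (Zm-B73-REFERENCE-NAM-5.0). They name 1 gene for 966 kept probe sets, of which 830 (703 genes) have a name other than a LOC number. Genes named were the 15 largest rises and 15 largest falls with a name, up to 3 called members of each of 27 lists with the smallest p, and the measured gibberellin gene. 1 gene among them is not reported here. A gene with several probe sets was taken by its brightest, and further list members and LOC genes were chosen once their values were known. The members, lists and naming rule were chosen with earlier results of these data known. The fit was checked on simulated data before use. Plots used matplotlib 3.10.9 (Python 3.11.15).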

Additional observations from a re-analysis of the deposited data

Results flagged for a closer look

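The poly-A control probe sets, which take no part in the comparisons, were above control on the UCZ arrays by 0.57 ± 0.18 in replicate 1 and 0.64 ± 0.19 in replicate 2 (log2, mean ± SD over 24 probe sets). They differed from control by -0.04 ± 0.20 and -0.33 ± 0.22 on the GA3 arrays. They were singled out because a signal outside the main measurement stood above its level in the control arrays.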

How the results depend on the processing

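Only 6 arrays were available, and the calls rest on a spread with few residual degrees of freedom. Directions of the named genes did not reverse in any fit that tested them, under the 11 alternatives or without 1 array. For the 58 that met the rule, 1 sign in all 4 differences was required, so leaving out a control array could not reverse them. With 1 array left out at a time, the average change of por2 ranged from 0.30 to 0.93. The gene prp4 was bright enough to be tested in 4 of these 6 fits, at -1.99 to -1.90. Of the 58 named genes that met the rule, 1 (sps1) passed under every alternative that tested it. It was not tested among the brightest 40%, which held 49 of the 68 named genes. The rest of the 58 lost their call with GA3 and UCZ as 1 term. Of the 68 named genes, 24 lost theirs without the block and 15 under poly-A scaling. Counts of calls stayed within 1.5 times under median centring, quantile normalization, a pseudocount of 1 or 64, no filter, and a prior without trend or robust, whereas keeping the brightest 40% left 597 lower probe sets that moved 1 way. With GA3 and UCZ as 1 term 15 passed and moved 1 way, 2 higher and 13 lower. Without the replicate block 532 passed, 156 higher and 376 lower; 469 moved 1 way, 134 higher and 335 lower, of which 220 differed between GA3 and UCZ, and GA3 alone was called for 139 and UCZ for 1620. Under poly-A scaling 92 were higher, 716 moved 1 way of which 72 higher, and GA3 alone was called for 460 and UCZ for 7507. Higher calls were 42.9% of all calls as deposited, 58.8% with median centring, 49.1% with quantile normalization and 5.34% with poly-A scaling.

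Without 1 array at a time 1398 to 1728 passed (lowest without control replicate 2), 570 to 728 higher and 828 to 1051 lower. Those that moved 1 way numbered 1232 to 1563, of which 442 to 885 differed between GA3 and UCZ (lowest without UCZ replicate 2). GA3 alone gave 501 to 978 calls, lowest without GA3 replicate 1 and also more than 1.5 times below the full count without GA3 replicate 2, and UCZ alone 2083 to 3731, with 2083 without UCZ replicate 2. An arm left with 1 array is assumed to vary like the others. The cause of these shifts was not tested. Some lists were corrected after the matched names were seen. As first matched, 10 protease genes (3 higher, 2 lower), 14 ribosomal (4 and 1), 24 aquaporin (1 and 5), 19 leaf (0 and 5) and 4 darkness genes (2 and 0, against 0 and 0 of 1 after correction) were measured.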
